A study of Mus musculus with 8 samples.

Results

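The miRNAs described here come from 6 hairpins that lie close together on mouse chromosome 12, antisense to the gene Rtl1: Mir337, Mir431, Mir433, Mir127, Mir434 and Mir136. They were chosen by name, as every probe of a mature form with the stem mmu-miR-127, mmu-miR-136, mmu-miR-337, mmu-miR-431, mmu-miR-433 or mmu-miR-434 (the prefix, for mouse, is left out below). This gave 12 mature forms of the 650 miRNAs on the array, with 31 probes and 240 spots on each array. Of the 12 forms, 8 could be tested, among 168 tested miRNAs in all. The RapCA group was 4 cultures that carried the RapCA shuttle vector, made with smooth muscle cells of small vessels from male C57BL6 mice without Rap1a, a Ras-related GTPase. The vector group was 4 cultures of the same Rap1a -/- cells that carried the empty shuttle vector. Both groups therefore lack Rap1a. Both were grown in 10% serum and exposed to virus, overnight and without serum, then kept for 48 h in 0.5% serum. The labels call the 4 cultures of a group biological replicates and give no age, and they do not say how many animals or cell preparations the cultures came from. The sources used here do not say what RapCA encodes. The series title sets knockout against rescue, so the comparison asks which miRNAs differ once RapCA is supplied to cells without Rap1a.

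Rtl1 is a retrotransposon-derived gene of the imprinted Dlk1-Dio3 domain, expressed from the paternal chromosome and needed in the mouse placenta. The opposite strand is transcribed from the maternal chromosome and carries these miRNAs, which match the Rtl1 transcript along their whole length and can direct its cleavage. The same maternal strand holds a second, larger miRNA cluster further downstream, from miR-379 to miR-410. miRNAs of the domain are high in embryo, placenta and brain and are also found in cultured mesenchymal cells. Each hairpin can release a 5p and a 3p arm, and an asterisk in the array's names marks the arm once regarded as the minor one.

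The sequences of the 12 forms show which products the hairpins give and where their seeds differ. They are written 5′ to 3′ as RefSeq gives them for the build GRCm38.p6, with the seed (bases 2 to 8) in capitals, in map order along the plus strand, and all 12 names matched:
miR-337-5p: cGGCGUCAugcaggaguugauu
miR-337-3p: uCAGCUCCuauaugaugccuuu
miR-431 (5p arm): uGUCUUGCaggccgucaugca
miR-431* (3p arm): cAGGUCGUcuugcagggcuucu
miR-433* (5p arm): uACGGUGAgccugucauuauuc
miR-433 (3p arm): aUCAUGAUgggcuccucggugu
miR-127* (5p arm): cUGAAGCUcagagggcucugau
miR-127 (3p arm): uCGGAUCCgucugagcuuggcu
miR-434-5p: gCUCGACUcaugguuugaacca
miR-434-3p: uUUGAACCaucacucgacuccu
miR-136 (5p arm): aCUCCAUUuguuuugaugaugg
miR-136* (3p arm): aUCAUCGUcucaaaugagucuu
The 12 seeds are all different, and no other mature mouse miRNA in the RefSeq table shares any of them. The miRNAs thus form a family by position and not by seed. Their GC content runs between 36.4% for miR-136 and miR-136* and 59.1% for miR-127 and miR-431*. The array's probe sequences were not used here, so each probe was tied to an arm by its name.

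In GRCm38.p6 the 6 hairpins span 9600 bases of the plus strand, and all 6 lie within the gene model of Rtl1 in the RefSeq table. Mir337 comes first, at chr12:109585789-109585885, and is set 4561 bases apart from the next. Mir431 lies at chr12:109590447-109590537 and Mir433 at chr12:109591715-109591838. Mir127 lies at chr12:109592846-109592915. Mir434 at chr12:109594506-109594599 and Mir136 at chr12:109595327-109595388 close the row, 727 bases apart. The array design used the older build mm9, whose coordinates differ and are not given here.

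Some of these sequences repeat each other in part. The arms of Mir434 share a run of 9 bases, uuugaacca, which starts at base 14 of miR-434-5p and at base 1 of miR-434-3p, where it covers the seed. The arms of Mir431 share a run of 10 bases, gucuugcagg, which starts at base 2 of miR-431 and so covers its seed too. Of 677 hairpins with both arms in the RefSeq table, 1.33% share a run of at least 9 bases between their arms, and the median run is 4 bases. Between hairpins, miR-337-5p and miR-431 share the 9 bases cgucaugca. Whether any probe of one form also binds another form was not tested.

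Signal was brighter on the vector arrays before any scaling, which bears on every level below. Total gene signal was 35150 ± 14362 on RapCA arrays and 69834 ± 9956 on vector arrays (SD, n = 4 each). The brightest RapCA array, replicate 1, had 56618 and the remaining 3 had between 26374 and 29218. Spike-in controls averaged 1255 ± 129 on RapCA arrays and 1254 ± 108 on vector arrays (SD, n = 4 each). Between 123 and 183 miRNAs were detected per RapCA array and between 169 and 200 per vector array. All 8 arrays lay on 1 slide, and the file headers place the RapCA arrays in one row of the slide and the vector arrays in the other, so slide row and group cannot be told apart. Both smooth muscle miRNAs were lower in RapCA cells along with the cluster. miR-143 was detected on all 8 arrays, with a total gene signal of 26.9 to 98.4 on RapCA arrays and 166 to 304 on vector arrays, and a scaled difference of -1.62 ± 0.15 (SE, limma adjusted p = 6.66e-06). miR-145 was detected on 0 of 4 RapCA arrays and on 4 of 4 vector arrays. Their part in the cluster's results was not tested. Of 19 marker miRNAs of other cell types, 1 was detected, the striated muscle miRNA miR-206, at a total gene signal of 14.2 to 41.1 on RapCA arrays and 36.0 to 46.6 on vector arrays. The part of miR-206 in the results was not tested. Fewer cells of a type and less RNA per cell cannot be told apart in such cultures.

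Levels below are log2 of the signal after each array was scaled to a common 75th percentile, with dim values raised to a floor of 3.26, and a level belongs to its own probes and is not set against that of another miRNA. A miRNA counts as detected on an array where a probe of it had over 0.5 of its spots well above background. The lowest detected probe lay at 4.73, 4.08 and 4.30 on RapCA replicates 2 to 4, and at the floor on RapCA replicate 1 and on all 4 vector arrays. Values of undetected miRNAs are therefore near background, and their spread is understated. Differences are RapCA minus vector, tested with limma on all 168 miRNAs with Benjamini-Hochberg adjustment and a threshold of 0.05.

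Within the cluster, 7 of the 8 tested forms were lower in RapCA cells and 1, miR-136, did not pass the test. None was raised. The fall was near 1.8 on the log2 scale for miR-431 and miR-127 and near 0.5 for miR-337-5p. Sizes for members near the floor depend on where the floor is set. With it at a scaled signal of 1 before log2, miR-337-5p was at -0.86 and miR-433 at -1.88. With it at a factor of 2 higher they were at -0.25 and -0.01. Under the same floors miR-431 was at -1.91 and -1.34, and miR-127 at -1.80 and -1.76. Across all tested miRNAs 50% were lowered, which is the share that the members' count has to be read against. The median difference was -0.97 over the 8 tested members and -0.30 over all 168 tested miRNAs, and all 8 members lay below -0.30. Set at its detection bound, miR-433 would lie at 0.24 and so not below -0.30. The members' median stays at -0.97 either way, because miR-433 lies above it in both cases. No bound was set for the other members. These figures are no support in themselves, since 3 of the 8 members were detected on every RapCA array and the others entered the test through the vector arrays alone. RapCA arrays lay wholly below vector arrays for 7 of the 8 members, against 46.4% of all tested miRNAs.

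**Figure D1:**
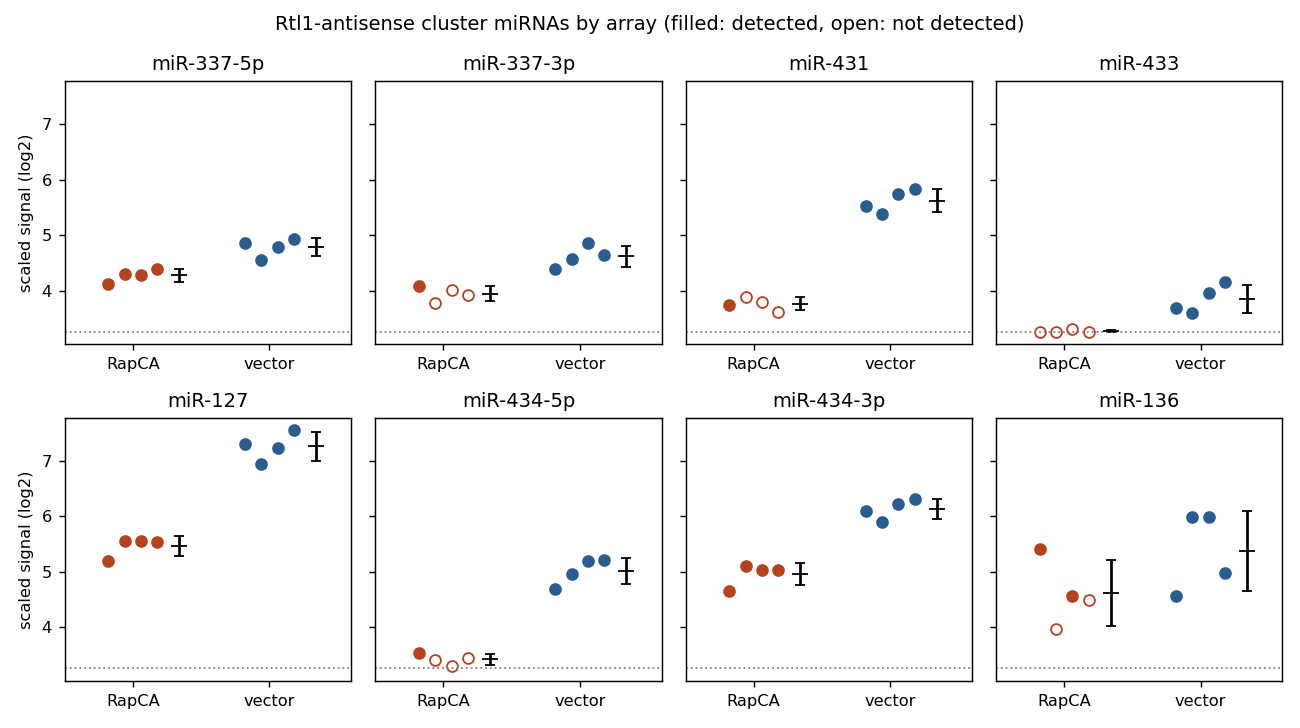
Each panel plots 1 tested miRNA of the cluster, with log2 scaled signal on the vertical axis, RapCA arrays on the left and vector arrays on the right. Each point is 1 array, filled where the miRNA was detected, the bars give the mean and SD of 4 arrays, and the dotted line is the floor at 3.26. The groups overlap for miR-136 alone.

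miR-337-5p comes from the first hairpin of the row. It read 4.12, 4.30, 4.29 and 4.40 on the RapCA arrays and 4.86, 4.56, 4.79 and 4.93 on the vector arrays. It was detected on all 8 arrays, and every RapCA array lay below every vector array by a narrow margin. The means were 4.28 ± 0.11 in RapCA cells and 4.78 ± 0.16 in vector cells (SD, n = 4 each), a difference of -0.51 ± 0.11 (SE, limma adjusted p = 0.00175). Of its probes, one was detected on all 8 arrays, with a difference of -0.49, and the other on the vector arrays alone, with -0.52. The latter averaged 3.29 on the RapCA arrays, next to the floor, so its difference depends on the floor. For miR-337-5p the difference was -0.86 with the floor at a scaled signal of 1 before log2 (limma adjusted p = 0.00145). It was -0.25 with the floor at a factor of 2 higher (limma adjusted p = 0.0134). Total gene signal of miR-337-5p before scaling was 35.5, 13.9, 14.8 and 16.7 on the RapCA arrays and 65.6, 59.4, 77.7 and 58.2 on the vector arrays. Without scaling its fitted difference was -1.14, close to the median of -1.03 over all 168 tested miRNAs, so these unscaled values add little.

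miR-337-3p, the other arm of that hairpin, read 4.08, 3.79, 4.01 and 3.92 on the RapCA arrays and 4.40, 4.58, 4.86 and 4.65 on the vector arrays. The groups did not overlap, but only RapCA replicate 1 detected it among the RapCA arrays, against 4 of 4 vector arrays. It averaged 3.95 ± 0.13 in RapCA cells and 4.62 ± 0.19 in vector cells (SD, n = 4 each), a difference of -0.67 ± 0.12 (SE, limma adjusted p = 0.000503). Both kept probes pointed down, at -0.65 and -0.69. The brighter one read 30.0, 8.79, 12.3 and 10.6 before scaling on the RapCA arrays and 37.6, 49.0, 62.3 and 37.7 on the vector arrays. Without RapCA replicate 2 the difference was -0.41 (limma adjusted p = 0.0217).

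miR-431 fell by about as much as miR-127. In mice it is known to act on Pax7, a transcription factor of muscle stem cells. It read 3.75, 3.89, 3.80 and 3.61 on the RapCA arrays and 5.52, 5.38, 5.75 and 5.84 on the vector arrays. RapCA arrays thus sat close to background, with detection on replicate 1 alone, and all 4 vector arrays stood well clear of it. The means were 3.76 ± 0.12 in RapCA cells and 5.62 ± 0.21 in vector cells (SD, n = 4 each), a difference of -1.86 ± 0.12 (SE, limma adjusted p = 1.08e-06). Since 3 RapCA values were not above background, the size of the fall is uncertain. Before scaling its kept probe read 18.7, 7.74, 8.07 and 6.71 on the RapCA arrays and 65.8, 65.2, 92.5 and 66.1 on the vector arrays. RapCA replicate 1 thus stood highest in its group there. Leaving out vector replicate 4 brought the difference to -0.95 (limma adjusted p = 4.13e-05), because a dimmer probe of miR-431, detected on the 3 remaining vector arrays and at the floor on the RapCA arrays, then entered the mean.

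miR-433 was measured on the vector arrays alone. Its RapCA values were 3.26, 3.26, 3.31 and 3.26, at or next to the floor, and its vector values were 3.70, 3.61, 3.95 and 4.16. It was detected on 0 of 4 RapCA arrays and on 4 of 4 vector arrays. The means were 3.28 ± 0.02 in RapCA cells and 3.86 ± 0.25 in vector cells (SD, n = 4 each), and the fit called it lowered (limma adjusted p = 0.00186). No fold is given, because the mean detection limit of the RapCA arrays, 4.09, was above the vector mean. Before scaling, its kept probe read between 2.63 and 3.47 on RapCA arrays and between 18.7 and 26.7 on vector arrays. Its other probe was not detected on any array, with mean signals of -2.66 on RapCA and -1.61 on vector arrays. The call therefore rests on 1 probe. With a floor at a factor of 2 higher the difference was -0.01 (limma adjusted p = 0.572), and the call was lost.

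miR-127 is the best known miRNA of the cluster and is the one most often cited for cleaving the Rtl1 transcript. It read 5.19, 5.55, 5.56 and 5.55 on the RapCA arrays and 7.30, 6.94, 7.23 and 7.56 on the vector arrays. It was detected on all 8 arrays and the groups were far apart, with RapCA replicate 1 the lowest of all. The means were 5.46 ± 0.18 in RapCA cells and 7.26 ± 0.26 in vector cells (SD, n = 4 each), a difference of -1.80 ± 0.14 (SE, limma adjusted p = 3.19e-06), or a RapCA level 0.288 times that of vector cells. Its probes gave -1.93 and -1.67.

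The fall of miR-127 could also be seen without any scaling. Its total gene signal was 80.9, 39.8, 46.2 and 44.5 on the RapCA arrays and 353, 292, 394 and 342 on the vector arrays. RapCA replicate 1, the brightest RapCA array, had the highest unscaled value of its group and the lowest scaled one. With no scaling the fitted difference was -2.82, and with normalization to the spike-in RNAs it was -2.82 as well. In these settings the median of all 168 tested miRNAs was -1.03 and -1.07, and 113 and 111 of them were lowered. Part of the -2.82 is therefore shared by most miRNAs.

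miR-434-5p lies next on the map. It read 3.54, 3.42, 3.31 and 3.45 on the RapCA arrays and 4.70, 4.96, 5.20 and 5.20 on the vector arrays. RapCA replicate 1 was the single RapCA array that detected it, against 4 of 4 vector arrays, and the groups were more than 1 log2 unit apart. It averaged 3.43 ± 0.10 in RapCA cells and 5.01 ± 0.24 in vector cells (SD, n = 4 each), a difference of -1.58 ± 0.13 (SE, limma adjusted p = 3.19e-06). Before scaling its kept probe read 16.1, 4.83, 4.67 and 5.57 on the RapCA arrays and 37.5, 48.6, 63.5 and 42.5 on the vector arrays. With 3 RapCA values not above background the size of the fall is uncertain, and it was -0.75 with the floor at a factor of 2 higher, -0.87 with cyclic loess and -3.74 from the total gene signal.

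miR-434-3p, its partner arm, was detected on all 8 arrays. It read 4.66, 5.10, 5.03 and 5.04 on the RapCA arrays and 6.09, 5.90, 6.21 and 6.31 on the vector arrays. The groups did not overlap, and RapCA replicate 1 was again the lowest array. The means were 4.96 ± 0.20 in RapCA cells and 6.13 ± 0.18 in vector cells (SD, n = 4 each), a difference of -1.17 ± 0.13 (SE, limma adjusted p = 2.30e-05). Its probes gave -1.20 and -1.14, and its total gene signal before scaling was 52.5, 26.1, 28.7 and 28.7 on RapCA arrays and 141.6, 135.5, 188.1 and 137.5 on vector arrays.

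The arms of the Mir434 hairpin, both detected on 4 of 4 vector arrays, were set against each other. Both arms of Mir337 were detected on these arrays too, but were not compared in this way. The log2 value of miR-434-3p minus that of miR-434-5p was 1.12, 1.68, 1.73 and 1.58 on the RapCA arrays and 1.39, 0.94, 1.02 and 1.11 on the vector arrays. RapCA replicate 1 and vector replicate 1 made the groups overlap. The group means of this gap were 1.53 ± 0.28 and 1.11 ± 0.20 for RapCA and vector cells (SD, n = 4 each), a difference of 0.41 that did not pass a two-sided exact permutation test (p = 0.0571, where the smallest p that 70 assignments allow is 0.0286). As miR-434-5p lay at or near the floor on the RapCA arrays, the gap measures its arms poorly there. Without scaling the difference turned to -0.33 (exact permutation p = 0.114).

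miR-136 behaved unlike the rest. It read 5.41, 3.97, 4.57 and 4.50 on the RapCA arrays and 4.56, 5.98, 5.99 and 4.98 on the vector arrays. RapCA replicate 1 was above vector replicates 1 and 4, so the groups overlapped, and 2 of 4 RapCA arrays detected it against 4 of 4 vector arrays. The means were 4.61 ± 0.59 in RapCA cells and 5.38 ± 0.72 in vector cells (SD, n = 4 each), a difference of -0.76 ± 0.38 that did not pass (SE, limma adjusted p = 0.0876). Its SD in vector cells was the second highest of the 168 tested miRNAs, whose median was 0.18. Without RapCA replicate 1 the difference was -1.02 (limma adjusted p = 0.0208) and without vector replicate 1 it was -1.01 (limma adjusted p = 0.0396), so that leaving out either of these arrays gave a call. Before scaling, its tested probe read 59.9, 8.21, 13.9 and 12.7 on the RapCA arrays and 33.8, 98.6, 109 and 36.4 on the vector arrays.

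The other 4 forms were not tested, because none had a probe detected on all arrays of a group. miR-127* and miR-431* were detected on 0 of 8 arrays. miR-136* and miR-433* were each detected on 1 array, vector replicate 3, and on 0 of 4 RapCA arrays. For Mir127, Mir136, Mir431 and Mir433 the array therefore gave a level for 1 arm of the hairpin, while Mir337 and Mir434 gave both. An arm not detected at this signal is not shown to be absent.

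**Figure D2:**
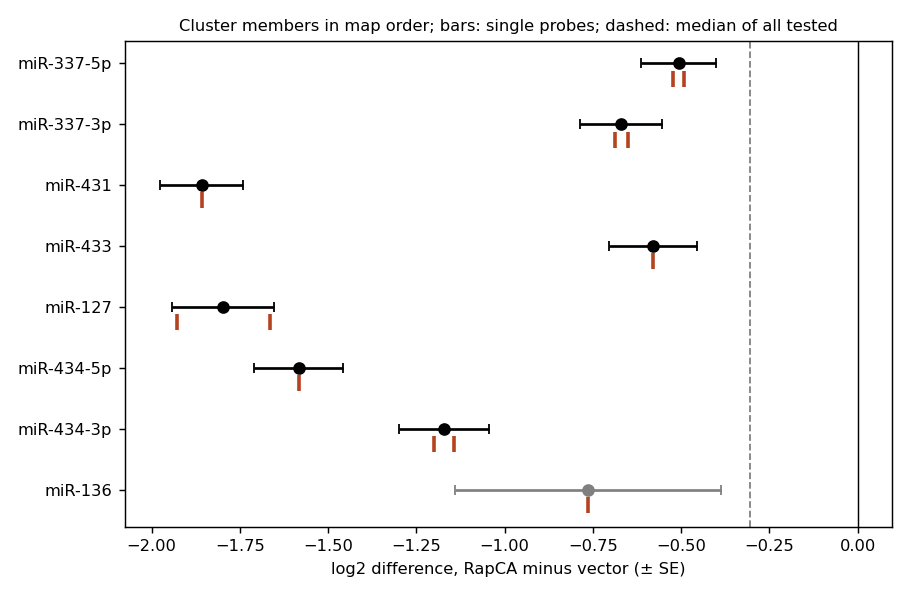
The horizontal axis is the log2 difference, RapCA minus vector, and each row is 1 tested member in map order. Points with bars are the limma estimate and its SE (grey where not called), short marks are the kept probes, and the dashed line is the median of all tested miRNAs at -0.30. Where more than 1 kept probe is drawn for a miRNA, the marks lie close together. For miR-136, miR-431, miR-433 and miR-434-5p only 1 probe was kept. All 8 members lie left of the dashed line.

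Single probes were also compared. Of the 31 probes, 12 were detected on all arrays of a group and were kept, and for 11 of these every RapCA array lay below every vector array after scaling, against 47.9% of the 292 kept probes of all miRNAs. Of the 12, 3 were detected on every RapCA array, and the others were kept through the vector arrays, so this count is no support in itself. Their differences ran between -1.93 and -0.49. The exception was the probe of miR-136. When the whole comparison was limited to probes detected on all 8 arrays, 115 miRNAs remained and 49.6% of them were lowered, and 3 members were left. These were miR-127 at -1.67 (limma adjusted p = 7.08e-06), miR-434-3p at -1.14 (limma adjusted p = 3.60e-05) and miR-337-5p at -0.49 (limma adjusted p = 0.00567). Here each of these 3 miRNAs stands on its brighter probe, which this limit requires to be detected on every array. The other kept probe was detected on 3 of 4 RapCA arrays for miR-127, 2 of 4 for miR-434-3p and 0 of 4 for miR-337-5p.

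**Figure D3:**
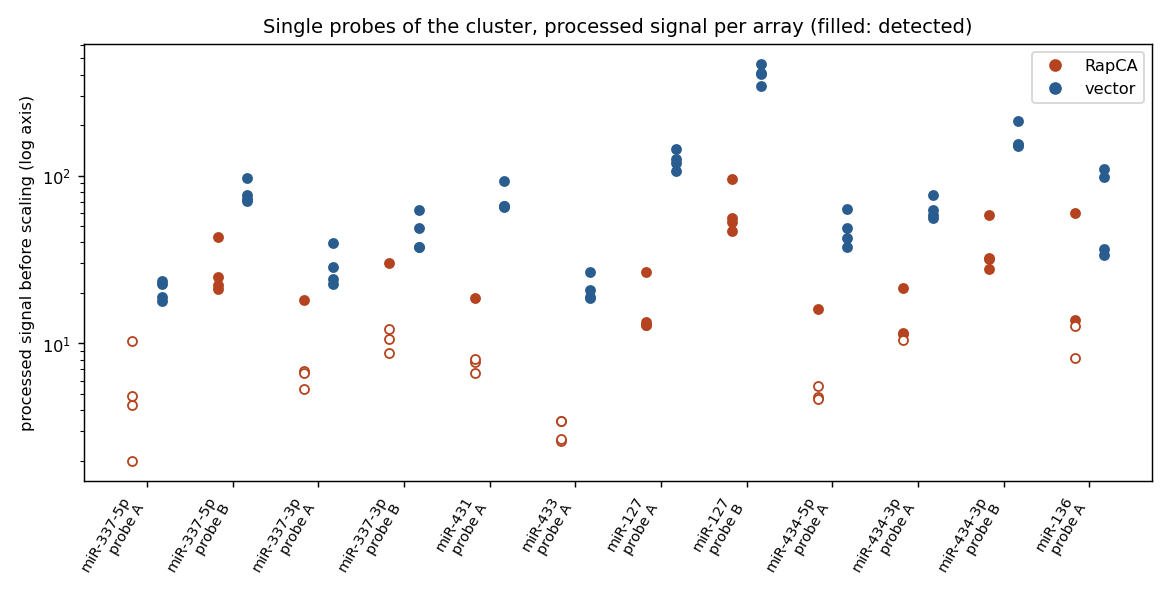
The vertical log axis is the processed signal before scaling, and each position on the horizontal axis is 1 kept probe, with RapCA arrays left and vector arrays right. Each point is 1 array, filled where the probe was detected. The isolated upper RapCA point of most probes is RapCA replicate 1, the brightest array of its group, and for miR-136 it lies above vector replicates 1 and 4.

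The calls of most members changed in the background alternative that adds an offset. With normexp, a model of background, and an offset of 50 added to every spot, 1 of the 8 members was lowered, miR-127 at -0.73, where 11.9% of all tested miRNAs were lowered and 48.2% raised, and miR-433 was called raised at 0.52 (limma adjusted p = 0.0292). miR-434-3p and miR-337-5p, both detected on all 8 arrays, were then at -0.12 (limma adjusted p = 0.580) and 0.37 (limma adjusted p = 0.0870) and not called, while the median of all tested miRNAs stood at 0.37. The offset was added before scaling, so each array's scale factor multiplied it too. With normexp and no offset 4 members were lowered, namely miR-127, miR-431, miR-434-3p and miR-434-5p, where 32.1% of all tested miRNAs were lowered. miR-127 was lowered under all 24 alternatives, between -2.82 and -0.73.

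**Figure D4:**
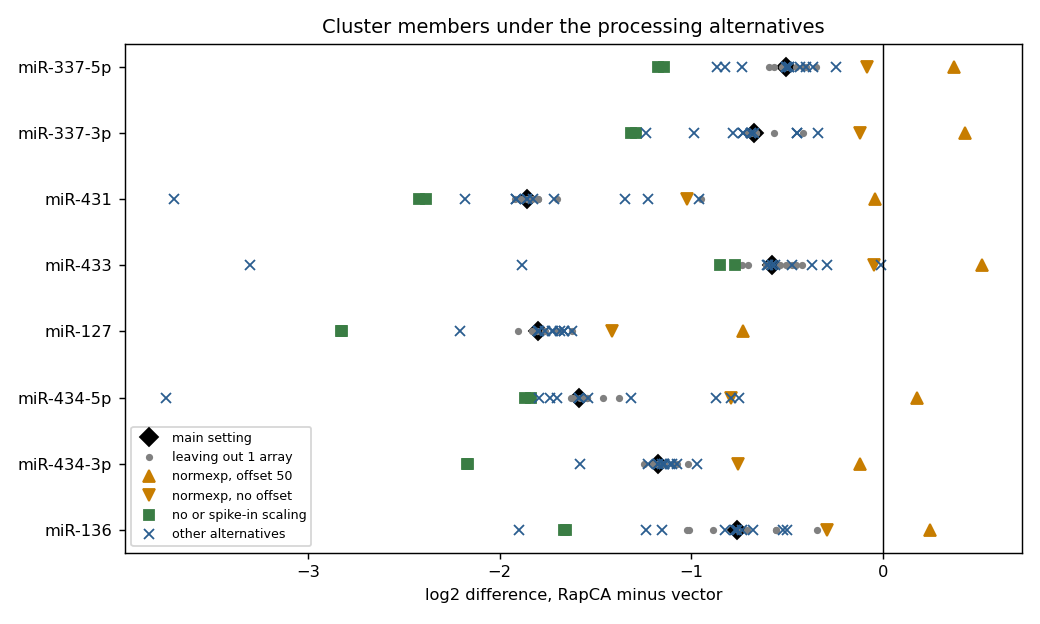
Each row is 1 tested member, and each mark is its log2 difference, RapCA minus vector, under 1 processing alternative. Diamonds are the values reported above, upward triangles are normexp with an offset of 50, and squares are no scaling or spike-in scaling. miR-127 stays left of 0 throughout, while 5 members cross 0 with the offset.

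The other miRNAs of the Dlk1-Dio3 domain were taken as a list by their place on the chromosome. Of 62 forms on the array, 22 were tested, and 20 were lowered in RapCA cells, beside 50% of all tested miRNAs, 1 was raised and 1, miR-377, did not pass (-0.41 ± 0.20, SE, limma adjusted p = 0.0812). Their median difference was -0.86, beside -0.97 for the cluster and -0.30 for all tested miRNAs. As with the cluster, most entered through the vector arrays: 8 of the 22 were detected on every RapCA array, so count and median are no support in themselves. Beside the share of all tested miRNAs lowered, the count was 1 with normexp and an offset of 50 (11.9%) and 9 with normexp and no offset (32.1%). It was 11 with the floor at a factor of 2 higher (41.1%) and 6 of 8 with probes detected on all 8 arrays (49.6%). These 22 start 25.7 kb downstream of Mir337 with miR-341 and run on to miR-410 at 157.9 kb. The nearest, miR-341, was detected on 0 of 4 RapCA arrays.

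The miRNAs of that list picked for description, by mean signal over the 8 arrays, were miR-494, miR-379, miR-299* and miR-329, which is a rule of choice and no comparison of amounts. miR-379, the first miRNA of the downstream cluster at 123.3 kb, averaged 5.35 ± 0.11 in RapCA cells and 6.90 ± 0.09 in vector cells (SD, n = 4 each). It was lowered, with a difference of -1.55 ± 0.09 (SE, limma adjusted p = 9.96e-07). miR-299* was also lowered, with a difference of -0.65 ± 0.12 (SE, limma adjusted p = 0.000732), as was miR-329 at -0.94 ± 0.13 (SE, limma adjusted p = 8.73e-05). miR-494 went the other way, with 7.42 ± 0.08 in RapCA cells and 5.91 ± 0.15 in vector cells (SD, n = 4 each), higher by 1.51 ± 0.10 (SE, limma adjusted p = 1.08e-06). It was the single raised miRNA among the 8 members and the 22 others tested.

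**Figure D5:**
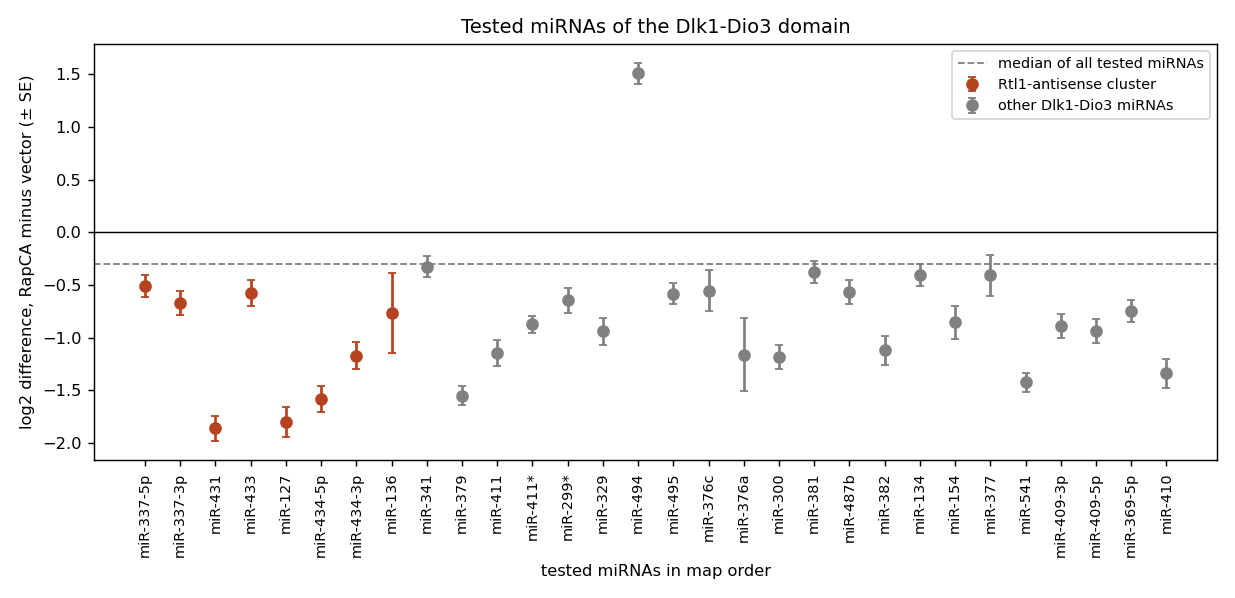
The vertical axis is the log2 difference, RapCA minus vector, with its SE, and the horizontal axis lists the tested miRNAs of the domain in map order, so spacing is not to scale. The 8 members of the Rtl1-antisense cluster are at the left and the 22 other miRNAs follow. miR-494 at 1.51 is the one point above 0.

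The members' patterns over the 8 arrays were compared with that of miR-127, picked for its mean signal, by Pearson's r. These r values include the gap between the groups and are a description, and arrays share their scaling across all miRNAs. miR-434-3p had r = 0.994, miR-431 had 0.986, miR-337-5p had 0.967 and miR-434-5p had 0.961. miR-433 had 0.931 and miR-337-3p 0.887, whereas miR-136 stood apart with 0.412. Among 112 miRNAs outside the cluster with a probe detected on all 8 arrays, the 5 most like miR-127 were miR-652 (r = 0.998), miR-24 (r = 0.995), let-7c (r = 0.994), let-7a (r = 0.994) and miR-99b (r = 0.993). Their differences lay between -1.18 for miR-652 and -0.73 for let-7a, a direction that the choice by likeness to miR-127 fixes. None of these 5 belongs to the domain, whose closest miRNA was miR-382, at place 10 (r = 0.984).

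The authors' deposited table of 54 selected miRNAs holds 5 of the members, and its values are on a scale whose normalization is not stated. In the authors' deposited table miR-127 stood at 69, 84, 90 and 90 in RapCA cells and 269, 193, 235 and 282 in vector cells, a ratio of means of 0.340. In the authors' deposited table the ratio was 0.234 for miR-431, 0.289 for miR-434-5p, 0.491 for miR-433 and 0.549 for miR-136. In the authors' deposited table miR-136 averaged 23.8 in RapCA cells and 43.3 in vector cells, and it was included there although it did not pass the test above. miR-434-3p, detected on all 8 arrays, and both arms of Mir337 are not among the 54.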

How the data were processed

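Each culture's total RNA was labelled with Cy3 and read on 1 single-colour mouse miRNA array. The authors read spot intensity with Agilent Feature Extraction 10.7.3.1, per the file headers (version 10.7 per the submitters' processing notes). The deposited processed intensity is background-subtracted and detrended, per the file headers, and not scaled between arrays. The deposited series value table held the same intensity values exactly (largest difference 0). Other deposited columns used were the scanner's flags (above background, saturation, outliers).

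From these, control spots and outlier-flagged spots were left out (2.98% to 4.66% per array, 0 spots saturated). The processed signal of 1857 probes was scaled to a common 75th percentile taken over 189 probes seen on every array, and floored at 9.61 before log2. Log2 values were averaged over the spots of a probe, then over those probes of a miRNA that every array of 1 group or of both detected. limma 3.58.1 in R 4.3.3 (lmFit, eBayes, two-sided, no covariate) compared RapCA with vector. The number of arrays, 4 per group, limits the precision, and the p-values reflect how far these 8 cultures differ. Samples were grouped by their labels. Same-numbered replicates deviated from their group means with correlations of -0.65, -0.60, -0.55 and 0.63, so the numbers were not taken to pair the samples. The method was tested on simulated data, with differences planted only in miRNAs with a probe detected on all 8 arrays. That test therefore does not cover members undetected on some RapCA arrays. Alternatives covered scaling, background, floor, filter, summary, array weights, a replicate block and leaving out each array. The scanner files hold no mean spot signal, so normexp used the median signal. The members and lists were chosen with earlier results of these data known. Named outside the cluster were the 4 brightest tested miRNAs of the domain list and the 5 most like miR-127 by Pearson's r. A few others were named after their values were seen: miR-341, miR-377, miR-382 and those most like miR-136.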

Additional observations from a re-analysis of the deposited data

Results flagged for a closer look

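Of 24 checks for a single array far from the other 3 of its group, 5 stood out by Dixon's test, which flags about 1 in 20 groups by chance. miR-127 read 5.19 on RapCA replicate 1, against 5.55 to 5.56 on the other RapCA arrays. miR-434-3p read 4.66 on the same array, against 5.03 to 5.10. That array's total gene signal was 56618, and the rest of its group had 26374 to 29218. miR-433 read 3.31 on RapCA replicate 3, where the other RapCA arrays lay at the floor of 3.26. With those fixed at the floor, any value above it would be flagged. The chance rate does not hold for this flag, and it shows no outlier. The spike-in mean was 1416 on vector replicate 1, against 1192.8 to 1210.7 on the other vector arrays. Without RapCA replicate 1 the cluster had 8 lowered members in place of 7, beside 82 of all 168 tested miRNAs lowered.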

How the results depend on the processing

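Precision was limited by dim signal on RapCA replicates 2 to 4. Of 24 alternatives, miR-127 was lowered in 24, miR-434-3p in 23 and miR-337-5p in 22. Of 23 that gave a value, miR-431 and miR-434-5p were lowered in 22, miR-337-3p in 21 and miR-433 in 20. Beside the share of all tested miRNAs lowered, lowered members numbered 7 of 8 in the main setting (50%) and 1 with normexp and an offset of 50 (11.9%). They numbered 4 with normexp and no offset (32.1%) and 3 of 3 with probes detected on all 8 arrays (49.6%). When 1 array was left out they numbered 7 to 8, beside 61 to 85 lowered among all tested miRNAs. With the offset, miR-136 was at 0.25, miR-337-3p at 0.43, miR-337-5p at 0.37, miR-433 at 0.52 and miR-434-5p at 0.18. As the offset was added before scaling, these values hold both the background model and an offset multiplied by each array's scale factor. The part of each was not tested. The median of all tested miRNAs was then 0.37, against -0.30 in the main setting, -1.03 with no scaling, -1.07 with spike-in scaling and -0.61 with the percentile over all probes. miR-136 was lowered in 6 alternatives, at -1.15 (limma adjusted p = 0.0359) with the percentile over all probes, -1.65 (0.0269) with no scaling, -1.66 (0.0322) with spike-in scaling, -1.24 (0.000935) with array weights, and without RapCA replicate 1 or vector replicate 1. Over the alternatives the adjusted p ran between 0.000935 and 0.571 for miR-136, 2.26e-07 and 0.803 for miR-433, 4.25e-08 and 0.870 for miR-431, and 1.89e-05 and 0.459 for miR-337-3p.

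Over all tested miRNAs, 84 were lowered and 44 raised. With normexp and an offset of 50 there were 20 lowered and 81 raised, and with no offset 54 lowered. Raised miRNAs numbered 28 with the percentile over all probes, 10 with no scaling and 9 with spike-in scaling. Leaving out 1 array gave 61 to 85 lowered and 39 to 49 raised, and 15 to 21 lowered among the other Dlk1-Dio3 miRNAs, the lowest without RapCA replicate 2. The miR-434 arm difference was -0.33 without scaling and 0.29 to 0.47 when 1 array was left out. With the replicate block, 7 members were lowered, with miR-127 at -1.80 (limma adjusted p = 9.09e-05) and miR-136 not called (0.140), and 77 miRNAs lowered and 41 raised; the block changed no member's call, and of the same-numbered arrays the replicates 4 alone deviated together (correlation 0.63).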

Other observations

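The uneven pattern of miR-136 recurred outside the cluster. Among 131 other tested miRNAs detected on at least 6 arrays, a choice made after the values of miR-136 were seen, the 5 most like it over the 8 arrays by Pearson's r were miR-376c (0.978), miR-377 (0.973), miR-301a (0.957), miR-30e (0.954) and miR-34c (0.954). miR-376c and miR-377 are transcribed from the same domain, 136.9 and 154.7 kb downstream of Mir337. miR-377 read 5.48, 4.81, 5.05 and 4.98 on the RapCA arrays and 5.001, 5.67, 5.83 and 5.45 on the vector arrays. RapCA replicate 1 was the highest and vector replicate 1 the lowest of its group for miR-377 as for miR-136, and the groups overlapped. Of these 5, miR-376c was lowered (-0.55 ± 0.19, SE, limma adjusted p = 0.0247), and the other 4 did not pass, with adjusted p between 0.0547 for miR-30e and 0.130 for miR-34c. What these arrays share was not tested.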
